A study of Mus musculus with 4 samples.

Results

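The genes described here encode transcription factors of the STAT family and the Janus kinases (JAKs) that activate them. They were taken by symbol, as *Stat2*, *Stat3*, *Stat4*, *Stat5a*, *Stat5b*, *Stat6*, *Jak1*, *Jak2* and *Jak3*, and these 9 genes, with 15 transcripts, were all found among the 23920 genes and 33170 transcripts measured. Bulk RNA sequencing was performed on bone marrow-derived macrophage-like cells (BMMs) of male C57BL/6 mice, with 1 library for each of 4 conditions. All cultures held M-CSF at 30 ng/mL. In 3 of them the cells were *Stat5* fl/fl, with floxed but undeleted *Stat5a* and *Stat5b*, and are called here the M-CSF library (no other cytokine), the RANKL library (100 ng/mL RANKL added) and the IL-3 library (the same RANKL and 1 ng/mL IL-3). The cKO library came from *Stat5* cKO cells, which had lost both genes through Mx1-Cre, and had the cytokines of the IL-3 library. Values are listed in this order of libraries throughout. The labels give 24 h of culture and mice of 8 weeks, whereas the methods give a younger age for osteoclast cultures. Mx1-Cre is driven by a promoter that responds to type I interferon and acts in many cells besides macrophages, and according to the methods mice of both genotypes had received poly I:C, an inducer of interferon. The question put to these genes is whether the other STATs and the JAKs stood at different levels when STAT5 was absent.

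JAKs are tyrosine kinases bound to the inner tails of cytokine receptors. When a cytokine joins its receptor chains, the JAKs phosphorylate the receptor and then a STAT protein on a single tyrosine near its end, and the STAT dimerizes, enters the nucleus and binds DNA. IL-3 acts through a receptor of a specific alpha chain and a shared beta chain that carries JAK2, and mainly activates STAT5. STAT3 is activated by the IL-6 and IL-10 families of cytokines, STAT6 by IL-4 and IL-13, STAT4 by IL-12, and STAT2 by type I interferon. M-CSF and RANKL signal through receptors that do not use JAKs. RNA levels do not show whether a STAT protein was phosphorylated.

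The values are FPKM, fragment numbers scaled to transcript length and library size, so that they can be compared between genes, and transcripts were summed per gene. Ratios between libraries were taken as the difference of log2(FPKM + 1), which understates differences of low genes. Genes that reached 1 FPKM in some library were compared, 10763 in all, 8 of the 9 genes among them, and *Stat4* alone stayed under this minimum. Depth was estimated at 33.25 to 36.85 M fragments per library, and 95% intervals derived from it cover counting error only. With 1 library per condition there is no replicate check, and no p-value for a difference between conditions can be given. Over all genes compared, the median log2 ratio was 0.14 between the RANKL and M-CSF libraries, -0.15 between the IL-3 and RANKL libraries and 0.13 between the cKO and IL-3 libraries, and these shifts were left in the ratios. In bulk RNA, fewer cells of a type and less RNA per cell cannot be told apart. The M-CSF library is labelled osteoclast precursor and the other libraries osteoclast. The 10 osteoclast markers summed to 45.9, 1277, 141 and 518 FPKM, highest in the RANKL library. Of these, *Calcr* was at 0 throughout, and *Itgb3* was highest in the M-CSF library, at 1.38 FPKM. The 6 macrophage markers found summed to 2479, 1127, 1861 and 1221 FPKM, lowest in the RANKL library. Of these, *Cd68* was lowest in the cKO library instead, at 726 FPKM against 757 FPKM in the RANKL library, and *Itgam* was highest in the IL-3 library, at 351 FPKM. The 4 neutrophil markers found summed to 638, 357, 561 and 378 FPKM, also lowest in the RANKL library. Most of this sum was *S100a8*, at 513, 275, 437 and 293 FPKM. *Elane* was lowest in the cKO library, at 13.6 FPKM, and *Mpo* and *Elane* were highest in the IL-3 library. The 5 dendritic cell markers summed to 9.02, 11.4, 102 and 11.3 FPKM, highest in the IL-3 library. Nearly all of this sum was *Itgax*, at 7.78, 10.2, 99.7 and 9.95 FPKM, so it does not describe the set. The next highest, *Xcr1*, peaked at 1.06 FPKM, and *Ccr7* was highest in the cKO library. These sums moved with the conditions described below, and the part of such cells in the levels of the STAT and JAK genes and of the lists of pathway genes was not tested.

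In *Stat5* fl/fl cells the order of the STAT genes was led by *Stat6*, which alone held between 53.3% and 57.2% of the summed FPKM of the 6 STAT genes. *Stat3* followed, with 15.7% to 16.6%. *Stat2*, *Stat5a* and *Stat5b* came next at levels close to each other, and their order changed from library to library. *Stat4* held under 1% in each library. Of the JAKs, *Jak1* held between 77.4% and 78.5% of the summed FPKM of the 3 genes, *Jak2* stood second and *Jak3* lowest in all 4 libraries. In cKO cells the sum of the 6 STAT genes was 89.7 FPKM, against 115 FPKM in *Stat5* fl/fl cells with the same cytokines, and *Stat6* held 69.5% of it. The level of *Stat6* itself was nearly the same, at 62.4 and 61.3 FPKM. Its larger share thus came with a smaller sum, from which *Stat5a* and *Stat5b* were nearly absent.

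**Figure D1:**
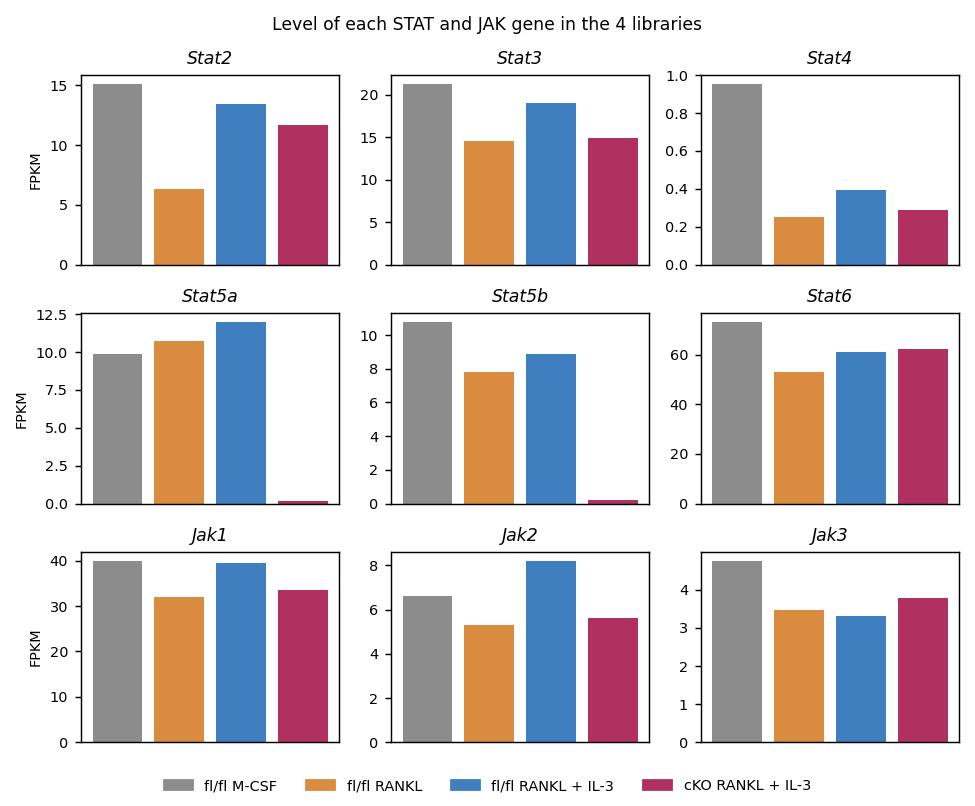
FPKM of each of the 9 genes (vertical axes, each with its own scale from 0) in the 4 libraries, each bar standing for 1 library, without replicates. *Stat5a* and *Stat5b* are near 0 in cKO, at 0.168 and 0.191 FPKM, while the cKO bar of every other gene lies within the range of the *Stat5* fl/fl bars.

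The targeted genes followed the genotype labels. *Stat5a* stood at 9.89 FPKM in the M-CSF library, 10.8 in the RANKL library, 12.0 in the IL-3 library and 0.168 in the cKO library. Its neighbour *Stat5b* stood at 10.8, 7.80, 8.86 and 0.191 FPKM. The *Stat5* fl/fl libraries thus lay close together for both genes, and the cKO library was far below all of them. At the estimated depth the cKO values came from about 24 fragments of *Stat5a* and 36 of *Stat5b*, so that 1.40% and 2.15% of the level in the IL-3 library remained. The fold below that level was 71.3 for *Stat5a* (95% counting interval 47.7 to 107) and 46.4 for *Stat5b* (33.3 to 64.7). These genes are close relatives, and 15.6% of the 50-base words of the *Stat5a* transcripts also occur in *Stat5b*, so part of their reads had to be divided between them by the authors' software. No other pair of the 9 genes shared such words.

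*Stat5a* was measured as a pair of transcripts that differ, among other exons, in whether they carry an exon of 52 bases on chromosome 11 (GRCm38, chr11:100881738-100881789, plus strand). The exon covers codons 688 to 705 of the transcript that carries it, counted from the start codon, and codon 694 within it reads tac and encodes the tyrosine that JAKs phosphorylate. It is shown in capitals between 20 coding bases on either side, followed by the junction of the transcript that skips it, to show what the second transcript lacks. The second transcript has 18 exons against 20 and encodes 797 codons against 793, so its product differs by more than the codons of this exon. Sequences are from GENCODE M21.
*Stat5a* with the exon: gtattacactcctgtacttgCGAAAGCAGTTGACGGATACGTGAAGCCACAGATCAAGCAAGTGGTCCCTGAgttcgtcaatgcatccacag
*Stat5a* without the exon: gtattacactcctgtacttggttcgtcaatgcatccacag

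The transcript with the exon (NM_011488) stood at 8.27, 7.85, 9.49 and 0.168 FPKM. The transcript without it (NM_001164062) was estimated at 1.62, 2.91, 2.47 and 0.000025 FPKM, or 16.4%, 27.0% and 20.7% of the gene in the *Stat5* fl/fl libraries. Most *Stat5a* RNA therefore carried the tyrosine codon in each of these libraries. As the transcripts share nearly all bases, their split is an estimate by the software and has no interval here. Of *Stat5b*, which has transcripts that differ in the first exon, NM_001113563 held 92.0% to 96.2% of the gene in *Stat5* fl/fl cells, and both transcripts encode the same 786 codons.

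**Figure D2:**
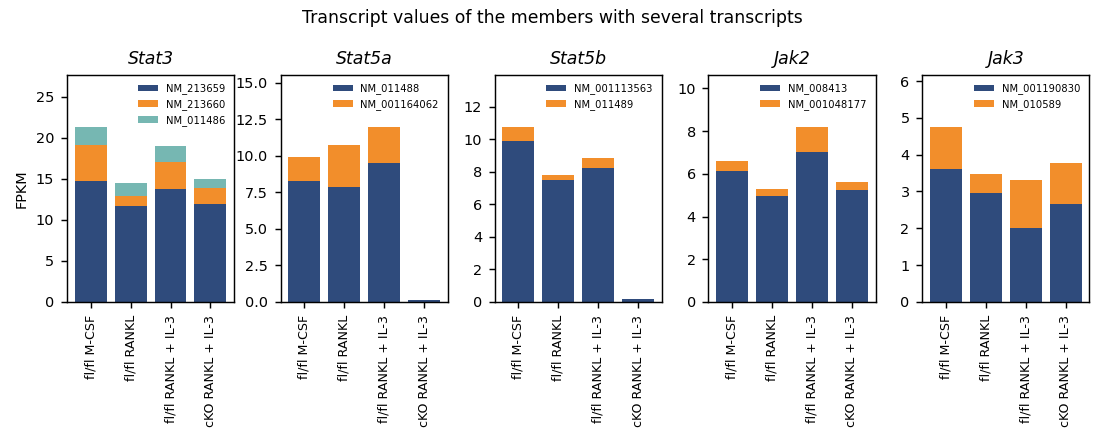
FPKM of each transcript (vertical axes, each with its own scale from 0) of the 5 genes with several transcripts, stacked per library, with colours standing for transcripts named in the key. *Stat3* is mostly NM_213659 in all 4 libraries, and the segment above it, NM_213660, is 4.49 FPKM in the M-CSF library and 1.29 FPKM in the RANKL library.

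When RANKL was added to M-CSF, 1 of the 8 genes compared was at least 2-fold apart, *Stat2*, which was lower, and the same 1 gene was at least 1.5-fold apart. Of all 10763 genes 12.3% were at least 2-fold apart either way and 29.5% at least 1.5-fold. *Stat2* encodes the STAT that joins IRF9 in the complex formed after type I interferon. It stood at 15.1 FPKM in the M-CSF library, 6.37 in the RANKL library, 13.4 in the IL-3 library and 11.7 in the cKO library, so that the RANKL library was the lowest and the other libraries lay close together. The level with RANKL was 2.38-fold below that with M-CSF (95% counting interval 2.2 to 2.56), a log2 ratio of -1.13, and 9.90% of genes had a larger absolute ratio. The median log2 ratio of the 8 genes was -0.39, against 0.14 over all genes, and 7 of the 8 were below 0, against 38.9% of all genes.

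The other genes were less far apart with RANKL. *Stat3* stood at 21.3, 14.5, 19.1 and 15.0 FPKM. *Stat6* stood at 73.0, 53.0, 61.3 and 62.4 FPKM. In both genes the M-CSF library was the highest and the RANKL library the lowest, with log2 ratios of -0.52 and -0.45. *Jak1*, the kinase shared by the receptors for interferons and for the IL-6 family, stood at 39.9, 32.0, 39.5 and 33.6 FPKM. *Jak2* stood at 6.62, 5.29, 8.19 and 5.62 FPKM. *Jak3*, which binds the common gamma chain of lymphoid cytokine receptors, stood at 4.75, 3.47, 3.32 and 3.78 FPKM. The log2 ratios of the kinases with RANKL lay between -0.36 and -0.28. Those of *Stat5a* and *Stat5b* were 0.11 and -0.42, and that of *Stat5a* changed sign, to -0.04, when the libraries were scaled to a common median.

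*Stat4*, whose product is known from T cells and NK cells, was at 0.955, 0.252, 0.392 and 0.288 FPKM in the 4 libraries. These values stand for about 95, 27, 43 and 32 fragments. The M-CSF library was thus the highest, 3.79-fold above the RANKL library (95% counting interval 2.46 to 5.82), whereas the counting intervals of the other comparisons included no difference. T cell and NK cell markers were near 0, with a highest single value of 0.277 FPKM among 5 T cell genes found, 2 of them at 0 in every library, and 0.0863 FPKM among 4 NK cell genes. The 5 B cell markers summed to 3.10 FPKM with M-CSF and to between 0.585 and 1.05 FPKM in the other libraries, highest in the library where *Stat4* was highest. Their part in the *Stat4* level was not tested.

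The promoters of the 9 genes were searched for the interferon-response letters GAAANNGAAA, on both strands, and that of *Stat2* is printed because *Stat2* was the gene at least 2-fold apart between the M-CSF and RANKL libraries. In promoters of RefSeq on GRCm38.p6, from 250 bases before to 50 after each gene start, this motif was found in 3.44% of 32851 promoters and in 2 of the 12 promoters of the 9 genes, 1 of *Stat2* and 1 of *Stat4*. The first 68 bases of the *Stat2* promoter (chr10:128270248-128270315, plus strand) are shown with the match, on the opposite strand, in capitals.
*Stat2* promoter: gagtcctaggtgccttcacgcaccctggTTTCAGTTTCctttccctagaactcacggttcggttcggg

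The letters TTCNNNGAA, the core to which STAT dimers bind, were found in 8.30% of all promoters and in 0 of these 12. This says only that the letters are not in these windows. Of 13 genes known as targets of STAT2 with IRF9, 0 were at least 2-fold apart between the M-CSF and RANKL libraries, with a median log2 ratio of -0.12. Over all genes the share was 12.3% and the median 0.14, so that a count of 0 among 13 is near the background. *Irf9* itself, the partner of STAT2, stood at 26.9, 21.8, 22.9 and 28.3 FPKM.

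Between the RANKL and IL-3 libraries, 0 of the 8 genes were at least 2-fold apart and 1, *Stat2*, was at least 1.5-fold higher. Of all genes, 9.58% and 24.8% were that far apart either way. The *Stat2* level with IL-3 was 2.11-fold that with RANKL (95% counting interval 1.95 to 2.27), but its log2 ratio of 0.97 with the added 1 FPKM stayed just under the 2-fold threshold and passed it, at 1.13, with libraries scaled to a common median. Of the fall from M-CSF to RANKL, 80.4% was regained with IL-3. *Jak2* had the next log2 ratio, 0.55, and its level with IL-3 was the highest of the 4 libraries and 1.55-fold that with RANKL (1.43 to 1.68). *Stat3* followed at 0.37, *Jak1* at 0.29 and *Stat6* at 0.20, while *Stat5a* and *Stat5b* were at 0.14 and 0.16. *Jak3* was at -0.05, which turned to 0.09 with libraries scaled to a common median. The median over the 8 genes was 0.25, against -0.15 over all genes, and 7 of the 8 were above 0, whereas 64.0% of all genes were below 0. This comparison shares the RANKL library with the preceding one, so a low value there appears in both.

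**Figure D3:**
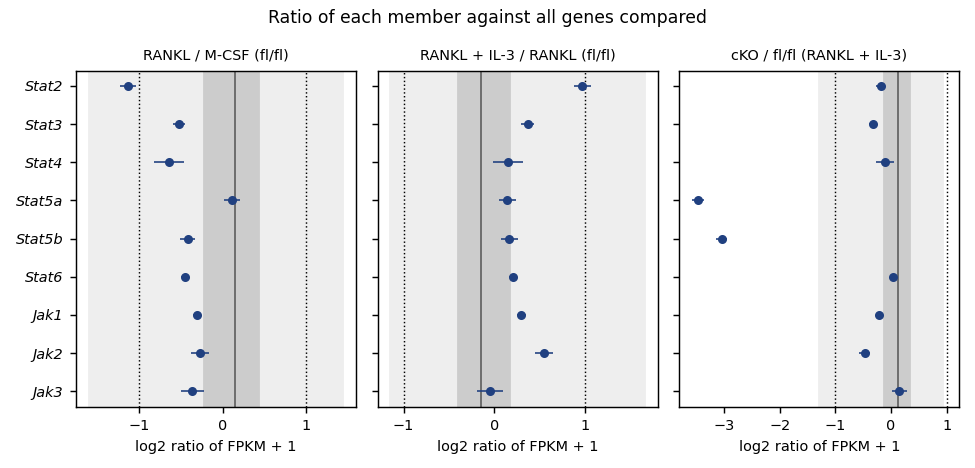
Log2 ratio of FPKM + 1 (horizontal) of each of the 9 genes in the 3 comparisons, with 95% counting intervals as bars. The dark band holds the middle 50% and the light band the middle 95% of all 10763 genes, the grey line is their median, and dotted lines mark 2-fold. In cKO only *Stat5a* (-3.47) and *Stat5b* (-3.05) lie beyond the dotted lines, and the next lowest is *Jak2* (-0.47).

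Between the IL-3 and cKO libraries, which had the same cytokines, 0 of the 6 other genes compared were at least 2-fold or at least 1.5-fold apart. Over all genes, 6.39% were at least 2-fold apart and 17.3% at least 1.5-fold. With so few genes and 1 library per genotype, this count does not show that their levels were alike. *Jak2* was furthest, 1.46-fold lower in cKO (95% counting interval 1.35 to 1.58), a log2 ratio of -0.47, and 25.4% of all genes had a larger absolute ratio. *Stat3* was 1.27-fold lower (1.21 to 1.34), with a log2 ratio of -0.33. *Jak1* and *Stat2* were 1.17-fold and 1.15-fold lower, with log2 ratios of -0.23 and -0.18. *Jak3* had a log2 ratio of 0.15. *Stat6* was at 0.03 and changed sign to -0.11 with libraries scaled to a common median, and the counting interval of its fold, 0.988 to 1.05, included no difference. The median of the 6 genes was -0.20, against 0.13 over all genes.

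None of the other STAT genes described here stood higher in cKO than in all 3 *Stat5* fl/fl libraries. The cKO value of each of the 7 genes other than *Stat5a* and *Stat5b* lay within the range of the *Stat5* fl/fl libraries, as it did for 70.1% of all genes compared. Set beside the *Stat5* fl/fl library with RANKL alone, which differs from cKO in both genotype and IL-3, the log2 ratio of cKO was 0.04 for *Stat3*, 0.07 for *Jak1*, 0.08 for *Jak2*, 0.10 for *Jak3*, 0.23 for *Stat6* and 0.78 for *Stat2*. Thus *Stat3*, *Jak1*, *Jak2* and, by little, *Jak3* in cKO stood nearer to RANKL without IL-3 than to RANKL with IL-3. *Stat6* stood nearer to RANKL with IL-3, and *Stat2* had 60.8% of its fall from M-CSF to RANKL above the RANKL level. Over all genes the median log2 ratio was -0.15 between the IL-3 and RANKL libraries and 0.13 between the cKO and IL-3 libraries, nearly opposite. The share of all genes placed in this way was not counted, so the placement is not read as particular to these genes. No cKO library without IL-3 was analysed here, so a level particular to the genotype and a missing response to IL-3 cannot be told apart.

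*Stat3* was measured as 3 transcripts. The first (NM_213659) encodes 770 codons. The second (NM_213660) lacks 3 bases (chr11:100893074-100893076, minus strand) at codons 700 and 701, which removes a serine near the activating tyrosine at codon 705. The third (NM_011486) encodes STAT3 beta, in which 50 bases from codon 715 on (chr11:100889541-100889590) are skipped, so that the protein ends after 722 codons and lacks the usual activation domain. The skipped bases are shown in capitals within the first transcript, with 20 coding bases on either side.
*Stat3* bases skipped in the second transcript: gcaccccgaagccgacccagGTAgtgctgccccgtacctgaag
*Stat3* bases skipped in STAT3 beta: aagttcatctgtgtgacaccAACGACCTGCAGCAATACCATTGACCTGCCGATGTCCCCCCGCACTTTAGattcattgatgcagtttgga

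The first *Stat3* transcript stood at 14.7, 11.7, 13.8 and 12.0 FPKM, and held between 68.9% and 80.1% of the gene. The second stood at 4.49, 1.29, 3.21 and 1.92 FPKM, 3.47-fold lower with RANKL than with M-CSF. STAT3 beta stood at 2.14, 1.59, 2.04 and 1.09 FPKM, with its lowest value in cKO, where it held 7.27% of the gene against 10.7% in *Stat5* fl/fl cells with the same cytokines. The difference between libraries in summed *Stat3* thus lay in part in the second transcript, although these transcripts also differ in the length of their ends, so their split rests on estimation.

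*Jak2* and *Jak3* were each measured as a pair of transcripts with the same number of codons. The minor *Jak2* transcript, which skips a noncoding exon (NM_001048177), stood at 0.50, 0.324, 1.15 and 0.385 FPKM. It was highest with IL-3 and made up 14.1% of the gene there, against 6.13% to 7.56% elsewhere. The *Jak3* transcript with 25 exons, against 24 in the other (NM_010589), made up 39.3% of the gene in the IL-3 library and 14.5% in the RANKL library. *Jak3* summed over transcripts differed by less than its counting interval between these libraries (fold 0.957, 0.845 to 1.08). As for *Stat5a* and *Stat3*, the split within each pair is an estimate by the software, and it has no interval here. The minor transcripts of both genes were also low. A change between the transcripts of *Jak2* or *Jak3* with IL-3 is therefore not established by these percentages.

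*Stat5b*, *Stat5a* and *Stat3* are neighbours on chromosome 11 (100780731 to 100859004, 100859351 to 100885169, and 100886806 to 100939594 on GRCm38). In RefSeq, 1637 bases separate *Stat5a* from the 3′ end of *Stat3*, which lies on the opposite strand, so levels of the genes around the deletion were examined. Of 29 genes compared within 500 kb of *Stat5a*, the targeted genes left out, 1 was at least 2-fold apart in cKO, *Atp6v0a1*, and the median log2 ratio was 0.05, against 6.39% and a median of 0.13 over all genes. *Ghdc*, the next gene measured beyond *Stat5b*, had a log2 ratio of -0.43, and *Ptrf*, the next beyond *Stat3*, one of -0.01. *Atp6v0a1*, a subunit gene of the proton pump, stood at 62.6, 7.83, 95.4 and 17.0 FPKM, and so was also far apart between the *Stat5* fl/fl libraries.

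**Figure D4:**
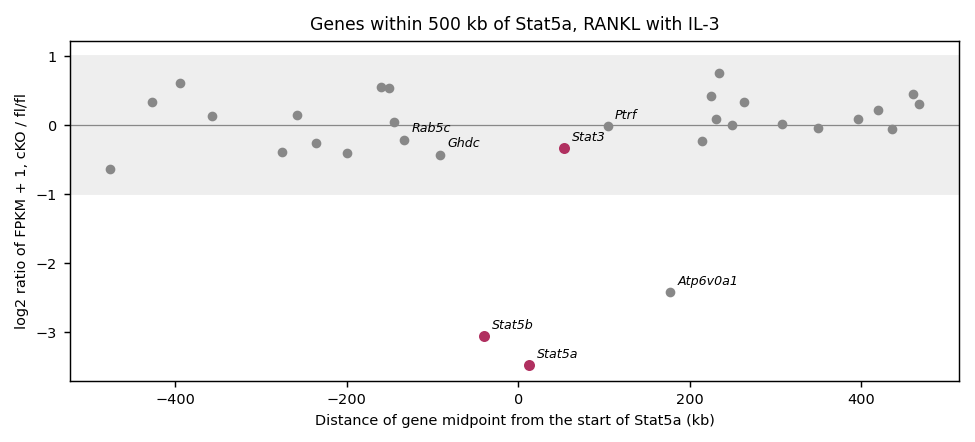
Log2 ratio of FPKM + 1 of the cKO to the IL-3 library (vertical) of the genes compared within 500 kb of *Stat5a*, against the distance of each gene's midpoint from the start of *Stat5a* (horizontal, kb). The band marks less than 2-fold. *Stat5a*, *Stat5b* and *Atp6v0a1* (-2.42) lie outside it, and *Stat3* (-0.33) inside.

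The genes with the most similar course were listed for the 3 members whose libraries spanned at least 2-fold, by the distance between centred log2(FPKM + 1) values over the 4 libraries, among 8142 genes. For *Stat2* they were *Epha2*, an ephrin receptor gene (distance 0.10), *Sdc3*, a syndecan gene (0.12), and *Ceacam1* (0.14). *Epha2* stood at 9.70, 3.73, 8.24 and 7.85 FPKM, and so was lowest in the RANKL library, as *Stat2* was. For *Stat5a* they were *Stat5b* (0.48), *Fblim1* (0.70) and *Glul*, the glutamine synthetase gene (0.80), and for *Stat5b* they were *Stat5a*, *Fblim1* (0.62) and *Glul* (0.80). *Fblim1* stood at 13.1, 15.6, 12.0 and 1.31 FPKM, low in the cKO library alone. With 4 libraries such likeness is a description only.

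Receptor chains that use JAKs were compared next. Of 21 such genes, 2 were at least 2-fold higher and 5 lower with RANKL than with M-CSF (median log2 ratio -0.39). Between the IL-3 and RANKL libraries 6 were higher and 0 lower (0.30). None was higher in the cKO than in the IL-3 library, and 4 were lower (-0.37). These 4, *Csf2rb*, *Il4ra*, *Il21r* and *Il7r*, were all among the 6 higher in the IL-3 library, so a high value there enters both counts. Over all genes, 12.3%, 9.58% and 6.39% were at least 2-fold apart either way in these comparisons, with medians of 0.14, -0.15 and 0.13. *Il3ra*, the alpha chain of the IL-3 receptor, stood at 17.0, 11.4, 13.2 and 10.5 FPKM. *Csf2rb*, the shared beta chain, stood at 32.2, 64.2, 165 and 41.3 FPKM, highest with IL-3. *Il21r*, a receptor that pairs with the common gamma chain, stood at 16.6, 3.50, 24.9 and 5.55 FPKM. *Il4ra*, whose product leads to STAT6, stood at 20.3, 6.64, 30.9 and 9.20 FPKM. *Csf2rb*, *Il21r* and *Il4ra* were named for their large ratios among the 21 genes, so their spread does not stand for the list. Other chains, such as *Il3ra*, lay closer together between libraries.

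Among 20 negative regulators, 2 were higher with RANKL (*Socs1* and *Socs3*), 3 higher in the IL-3 than in the RANKL library and 3 lower in cKO, with medians of 0.19, -0.05 and 0.05. The genes of the last 2 counts were *Cish*, *Socs2* and *Socs3*, of the SOCS family of feedback inhibitors, and both counts rest on the IL-3 library, so that a high value there enters both. *Socs3* stood at 1.12, 12.1, 30.7 and 12.4 FPKM. Of 12 cofactors and modifiers of STATs, 0 were at least 2-fold apart in any comparison. With the shares and medians over all genes given for the receptors, these counts are too small to read anything from them about either list.

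Lists of genes known as targets of STAT5, STAT6, STAT3 and STAT2 with IRF9 were set beside the RNA of these STATs in the cKO and IL-3 libraries. Over all genes, 6.39% were at least 2-fold apart either way, with a median of 0.13. Of 11 genes known as STAT5 targets, 1 was higher and 8 were lower in cKO (median log2 ratio -2.04). Of 9 known as STAT6 targets, 7 were lower and 0 were higher (-1.73). Among the lower genes was *Arg1*, the arginase gene, at 298 FPKM in *Stat5* fl/fl cells and 6.92 FPKM in cKO with the same cytokines. In the RANKL library *Arg1* stood at 1.62 FPKM, below its cKO value. Of 7 known as STAT3 targets, 4 were lower and 0 were higher (-1.25), of which *Socs3* also stands in the STAT5 list and *Il4ra* in the STAT6 list. *Il1rn*, which encodes an antagonist of IL-1, stood at 139 and 33.0 FPKM. Of the 13 genes known as targets of STAT2 with IRF9, 3 were higher in cKO and 0 were lower (0.68), namely *Ifit1*, *Ifit3* and *Isg15*, all of the interferon response. *Ifit1* stood at 3.97 FPKM in *Stat5* fl/fl cells and 11.2 FPKM in cKO. *Stat2* in cKO stood slightly lower, at 11.7 against 13.4 FPKM. Set against the RANKL library by the same 2-fold measure, the IL-3 library had 8 STAT5 targets higher and 1 lower (2.41). For STAT6 targets these counts were 6 and 0 (2.07), and for STAT3 targets 4 and 0 (1.27). For targets of STAT2 with IRF9 they were 1 and 0 (0.39). Both comparisons rest on the IL-3 library, so a high value there also enters the counts of genes lower in cKO. Which factor acted on the genes of these lists was not tested. The lists rest on knowledge from other cells, but they were chosen with earlier results of these data known. The STAT5 list holds *Id1*, which the paper also proposed as a STAT5 target from these same libraries. The counts are therefore not independent of the data and are given as description only.

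**Figure D5:**
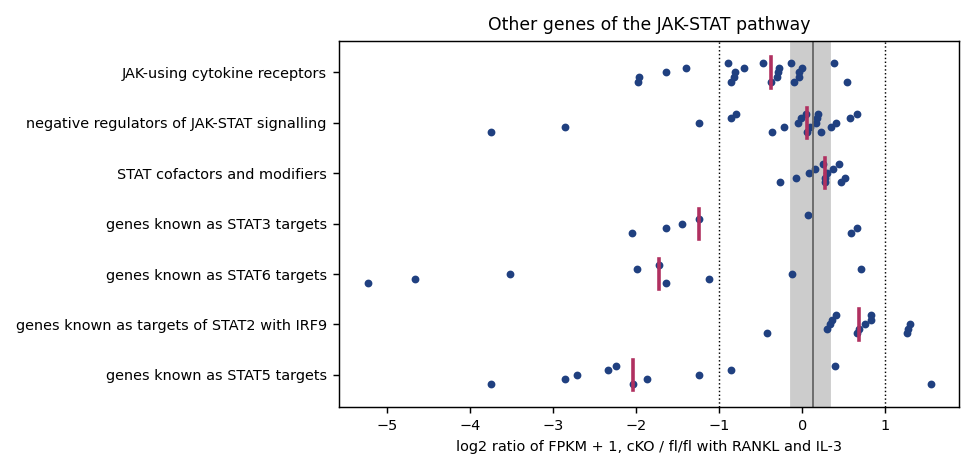
Log2 ratio of FPKM + 1 of the cKO to the IL-3 library (horizontal) for the genes compared in 7 lists of the JAK-STAT pathway, 1 point per gene, spread vertically for display. Red bars are list medians, from -2.04 for STAT5 targets to 0.68 for targets of STAT2 with IRF9, the band holds the middle 50% of all genes with their median as a grey line, and dotted lines mark 2-fold.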

How the data were processed

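RNA was sequenced on a HiSeq2000 system from TruSeq libraries, 1 per condition. The deposited values are FPKM of RefSeq transcripts, a unit inferred from the authors' software and the values because the table states none. The submitters' processing notes name TopHat2 2.0.13, Cufflinks 2.2.1 and the mm10 build. Software options and the use of strand are not given in those notes or in the methods.

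Transcripts were summed per gene ID. Small RNA genes recognised by symbol were left out (46 reached 1 FPKM). With 1 library per condition no test was made, and genes at least 2-fold apart on log2(FPKM + 1) were counted. The members and lists were chosen with earlier results of these data known. Named were all members, up to 4 genes at least 2-fold apart per list and comparison with the largest ratios, of which the text gives part, and the 3 genes nearest to each member that spans 2-fold. *Il3ra*, *Csf2rb2*, *Irf9*, *Ghdc* and *Ptrf* were named outside this rule after their values were seen, as was the search of promoters and isoform junctions. Other STAT and JAK genes are not reported here.

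Depth was estimated from single-transcript genes of at least 3000 bases, whose low FPKM times length fell within 0.2 of a whole step in 69.6% to 73.2% of values, against 40% for even spacing. The step was fitted to the same values. Transcript lengths and structures came from GENCODE M21 (GRCm38, also called mm10). All 15 member transcripts were matched by RefSeq identifier, and all 9 genes had promoters in RefSeq. The ratio step was run on simulated data with counting error only, which checks the calculation and says nothing about variation between cultures. Python 3.11.15, numpy 2.4.6, pandas 2.3.3 and matplotlib 3.10.9 were used.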

Additional observations from a re-analysis of the deposited data

How the results depend on the processing

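The count of genes at least 2-fold apart with IL-3 against RANKL, 0 as reported, was 1 (*Stat2*) with a pseudocount of 0.1 FPKM, with libraries scaled to a common median ratio or a common upper quartile, and at a 1.5-fold threshold. With RANKL against M-CSF it was 1, and 0 at a 4-fold threshold. In cKO, the count among genes other than *Stat5a* and *Stat5b* was 0 under each of the 8 alternatives, which also included a minimum of 5 FPKM, no minimum and the most abundant transcript per gene. At the 4-fold threshold and the minimum of 5 FPKM this was fixed in advance by the 0 at 2-fold. Of the 27 log2 ratios, 24 kept their sign under all 6 alternatives that apply to them, the exceptions being *Stat5a* with RANKL, *Jak3* with IL-3 and *Stat6* in cKO. Of 162 ratios under alternatives, 44 moved by more than their counting interval. The minimum of 5 FPKM and the lack of a minimum only select genes and leave each ratio as it was. Both counts include these settings, so only the other alternatives could change a sign or move a ratio. No paired analysis was possible because each condition has 1 library. Depth limits *Stat4*, with under 100 fragments in each library, and *Stat5a* and *Stat5b* in cKO.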

Other observations

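Receptor chains that hold JAK3 or JAK1 differed in which library was lowest. *Il2rg*, the common gamma chain that binds JAK3, stood at 43.4, 162, 121 and 175 FPKM in the M-CSF, RANKL, IL-3 and cKO libraries, so that it was lowest in the M-CSF library, where *Jak3* was highest (4.75 FPKM). *Il7r*, which pairs with the common gamma chain, stood at 15.7, 7.15, 28.3 and 10.1 FPKM, highest in the IL-3 library. *Il10ra*, a chain that binds JAK1 and leads to STAT3, stood at 18, 4.93, 15.4 and 7.85 FPKM, lowest in the RANKL library. *Csf2rb2*, the IL-3-specific beta chain of mice, stood at 16.5, 47.3, 52.7 and 29.7 FPKM, lowest in the M-CSF library, and it is a near copy of *Csf2rb*, so that the split of reads between these genes is uncertain.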
